A study of Mus musculus with 18 samples.

Results

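The response of wild-type (WT) mouse basophils to 2 h of antigen was measured by bulk RNA sequencing in 6 of the 18 libraries of the series. Of the 56413 genes in the count table, 14076 passed a filter on low counts and were tested. Basophils were grown from bone marrow for 7 days with IL-3 at 0.3 ng/mL, given TNP-specific IgE (1 µg/mL; TNP is a hapten) on day 6, and enriched with magnetic beads for CD49b. The antigen group of 3 libraries, each from 50000 cells, received ovalbumin carrying the hapten (TNP-OVA, 10 ng/mL) for 2 h. The control group of 3 libraries received ovalbumin without the hapten (control OVA, 10 ng/mL) for 2 h. All 6 libraries share the IL-3, the bound IgE and the bead selection. Bead-enriched cultures can hold other cells, and in bulk samples fewer cells of a type and less RNA per cell cannot be told apart. The other libraries are 3 from WT cells after 4 h of TNP-OVA and 9 labelled TTP-KO (tristetraprolin knockout, the Zfp36 gene) under the same 3 treatments. The labels do not say whether replicates are separate mice or cultures, so p-values cover only the differences among libraries of a group, and these may be technical.

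Basophils are granulocytes that bind IgE through the high-affinity receptor FcεRI. Antigen that bridges the bound IgE activates the kinases Lyn and Syk and then calcium, NFAT, MAP kinase and NF-κB signalling. The cells release preformed histamine within minutes and go on to make cytokines, above all IL-4 and IL-13. Many of the induced mRNAs carry AU-rich elements, to which tristetraprolin binds and which mark them for decay.

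The deposited counts summed to 7885149 ± 908950 in the antigen libraries and to 7586628 ± 1973221 in the control libraries (SD, n = 3 each), with the 6 totals between 5516579.6 and 9446137. Levels below are CPM (counts relative to a common library size of 1000000) scaled with the TMM factors of edgeR, which ranged from 0.872 to 0.887 in antigen libraries and from 1.09 to 1.11 in control libraries. Mitochondrial transcripts made up 1.72% to 1.83% of counts in antigen libraries and 1.99% to 2.14% in control libraries. The basophil genes Prss34 and Mcpt8 were high in all 6 libraries. The list of 12 basophil markers, of which 4 were called lower after antigen (33.3%, against 17.3% of all genes tested), is described further below. The protease gene Prss34 averaged 11016 ± 309 CPM after antigen and 11503 ± 246 CPM in the control, and the protease gene Mcpt8 averaged 6958 ± 145 CPM after antigen and 5372 ± 272 CPM in the control (SD, n = 3 each).

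Antigen moved a large part of the transcriptome within 2 h, and the larger changes were mostly increases. In the quasi-likelihood test of edgeR with Benjamini-Hochberg adjustment over all 14076 genes, 4944 genes passed an adjusted p of 0.05, which is 35.1% of those tested. Of these, 2512 (17.8%) were higher and 2432 (17.3%) lower after antigen. Counts of risers and fallers in the gene lists below stand beside these shares. Changes of at least 2-fold were called for 1051 genes (7.47%), 742 (5.27%) upwards and 309 (2.20%) downwards. At 4-fold the counts were 189 genes (1.34%) higher and 37 genes (0.263%) lower, and at 8-fold 42 genes (0.298%) higher and 12 genes (0.0853%) lower. The 3 antigen libraries lay wholly above or wholly below the 3 control libraries for 6114 genes (43.4%). The split between directions depends on the scaling. With library totals alone, the median log2 fold change of all genes moved by -0.33, and 1281 genes were called higher and 6415 lower.

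**Figure D1:**
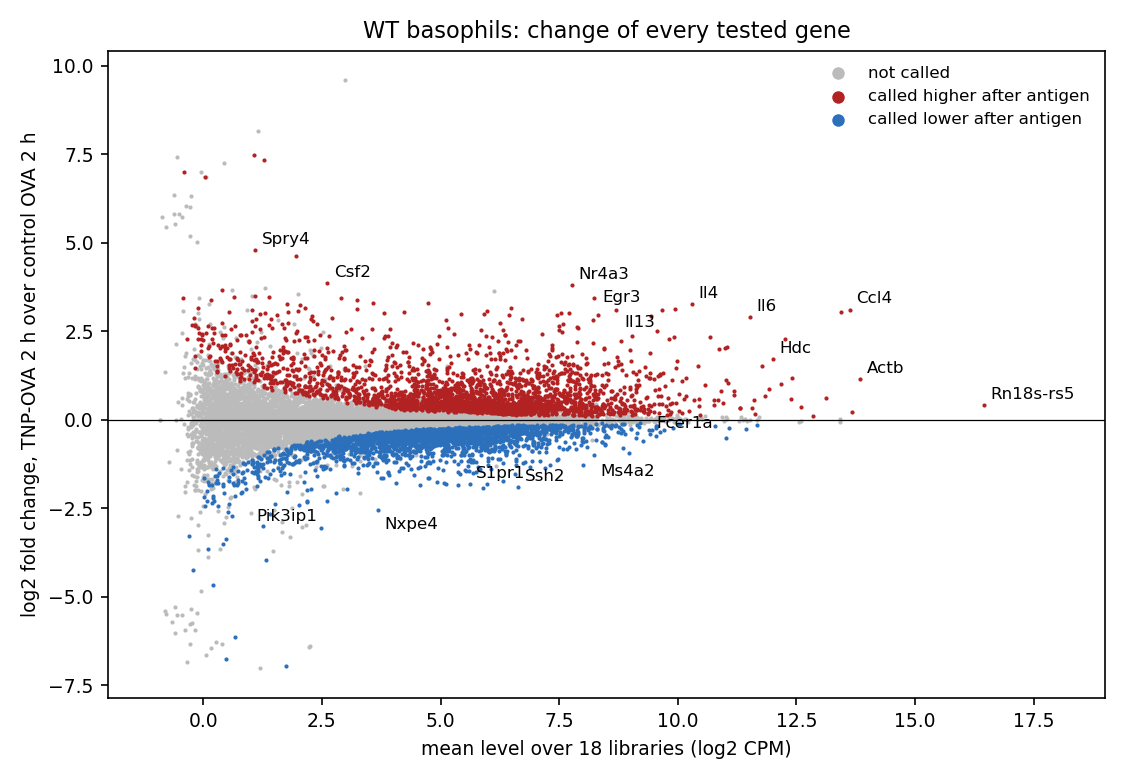
Change of each of the 14076 tested genes in WT basophils (y axis, log2 fold change of TNP-OVA 2 h over control OVA 2 h) against its mean level (x axis, log2 CPM over all 18 libraries). Red points are the 2512 genes called higher after antigen, blue points the 2432 called lower and grey points the rest; changes beyond 4-fold are more often upwards than downwards, and the most extreme points at the left have few counts.

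Transcripts of cytokine and chemokine genes held a larger share of the summed CPM after antigen than in the control. The 2 chemokine genes Ccl3 and Ccl4 alone made up 3.91% ± 0.126 of the summed CPM after antigen and 0.577% ± 0.00465 in the control (SD, n = 3 each). All 43 tested cytokine and chemokine genes on the lists used here made up 6.64% ± 0.134 after antigen and 2.17% ± 0.0163 in the control. The 742 genes at least 2-fold higher held 20.1% ± 0.141 of the summed CPM after antigen and 7.54% ± 0.127 in the control, values that their selection helps to set. The 309 genes at least 2-fold lower held 0.341% ± 0.00225 after antigen and 1.05% ± 0.029 in the control.

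Genes for a nuclear receptor, an early growth response factor and growth factors for myeloid cells were among the 12 largest increases. These are the called genes with the largest fold changes among those with a mean of at least 2 on the log2 CPM scale and groups that did not overlap. Nr4a3, an orphan nuclear receptor gene of the immediate early class, stood at 553, 609 and 604 CPM in the antigen libraries, against 40.5, 42.7 and 42.7 CPM in the control libraries. Its log2 fold change was 3.81 ± 0.06 (SE), which is 14.03-fold (edgeR, adjusted p = 3.10e-27). Egr3, a zinc finger factor of the early growth response family, stood at 673, 716 and 772 CPM after antigen, against 63.1, 69.6 and 65.00 CPM in the control (log2 fold change 3.45 ± 0.08). For both genes the rule required groups that did not overlap, so their separation is no further support. The spread within a group was small beside the gap. Over all genes tested, the groups did not overlap for 43.4%. Csf2, which encodes GM-CSF, had the largest fold change of the 12, 3.86 ± 0.29 on the log2 scale (edgeR, adjusted p = 8.12e-12), at low levels of 7.26, 12.6 and 10.2 CPM after antigen and 0.463, 0.83 and 0.776 CPM in the control. Il3, the basophil growth factor that the medium also supplied as protein, stood at 11.9, 12.4 and 13.5 CPM after antigen and 0.925, 2.66 and 0.388 CPM in the control (log2 fold change 3.43 ± 0.34).

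The 12 also held genes of other kinds. Mst1r, which encodes the receptor tyrosine kinase RON, averaged 22.6 ± 2.12 CPM after antigen and 2.19 ± 0.697 CPM in the control (SD, n = 3 each; log2 fold change 3.38 ± 0.23). Tgm1, a protein cross-linking transglutaminase gene, averaged 209 ± 13.6 CPM after antigen and 23.3 ± 2.85 CPM in the control (3.15 ± 0.13). Ch25h makes 25-hydroxycholesterol, and its log2 fold change was 3.12 ± 0.22. The lens crystallin gene Cryba4 rose by 3.17 ± 0.35. Ighv1-64, an immunoglobulin heavy chain variable segment with near-identical copies, stood at 10.4, 16.6 and 2.29 CPM after antigen and 1.16, 1.33 and 0.679 CPM in the control. Its adjusted p of 0.0436 (edgeR) ranged from 0.025 to 0.151 on leaving out 1 library at a time and stayed under 0.05 only without antigen replicate 3. One further member of the 12 is known by an identifier only.

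Of 27 immediate early and AP-1 genes, 26 passed the filter, and 24 rose and 2 fell. The median log2 fold change was 1.26, against -0.05 over all genes tested, and 0.93 with library totals alone. The NR4A genes rose together: Nr4a1 stood at 447, 437 and 449 CPM after antigen and 61.1, 53.3 and 57.4 CPM in the control (log2 fold change 2.95 ± 0.07), and Nr4a2 averaged 49.9 ± 2.83 CPM after antigen and 6.24 ± 2.25 CPM in the control (3.05 ± 0.16). The AP-1 subunits moved unevenly. Fosl1, which encodes Fra-1, averaged 55.03 ± 3.47 CPM after antigen and 5.69 ± 1.69 CPM in the control (log2 fold change 3.30 ± 0.16), and Junb averaged 581 ± 9.05 CPM after antigen and 234 ± 6.86 CPM in the control (1.31 ± 0.04). Egr1 rose by 2.97 ± 0.09 on the log2 scale. The fallers were Mafg, a small Maf factor (-0.25 ± 0.06), and Fos itself, at 33.3, 26.8 and 21.97 CPM after antigen and 42.7, 42.7 and 36.6 CPM in the control. The adjusted p of Fos was 0.018 (edgeR) and ranged from 0.00559 to 0.0864 on leaving out 1 library at a time, above 0.05 without control replicate 1 or 2 or antigen replicate 2 or 3.

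Promoters are shown for 5 induced genes of different classes, an NR4A receptor, an epidermal growth factor family ligand and 3 interleukins, because they illustrate how the letters of known response elements lie before induced genes. Each line gives the 250 bases before the RefSeq transcript start on the strand of the gene, from the GRCm38.p6 table (the counts used GRCm39, per the submitters' processing notes). Capitals mark matches on either strand to the AP-1 site TGANTCA, the full cyclic AMP response element TGACGTCA, its short form TGACG, the NFAT core GGAAA, the EGR site GCGNGGGCG, the NF-κB form GGANTTTCC and the TATA box TATAAA. The short form lies within the full element, and GGANTTTCC holds the reverse of GGAAA. For Il4 the upstream of its 2 windows is shown, and the 250 bases of the other held no match to any searched motif.
Nr4a1, chr15:101266596-101266845 (+): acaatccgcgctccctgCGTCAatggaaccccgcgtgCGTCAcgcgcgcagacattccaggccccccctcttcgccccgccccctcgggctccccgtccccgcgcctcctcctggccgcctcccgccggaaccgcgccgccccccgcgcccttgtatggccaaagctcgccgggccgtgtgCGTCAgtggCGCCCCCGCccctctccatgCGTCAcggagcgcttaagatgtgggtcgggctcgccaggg
Areg, chr5:91139349-91139598 (+): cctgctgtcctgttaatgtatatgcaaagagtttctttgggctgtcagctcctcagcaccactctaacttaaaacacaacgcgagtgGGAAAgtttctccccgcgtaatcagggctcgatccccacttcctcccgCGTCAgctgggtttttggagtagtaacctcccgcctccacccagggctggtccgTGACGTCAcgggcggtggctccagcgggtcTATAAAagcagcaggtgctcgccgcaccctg
Il4, chr11:53618666-53618915 (-): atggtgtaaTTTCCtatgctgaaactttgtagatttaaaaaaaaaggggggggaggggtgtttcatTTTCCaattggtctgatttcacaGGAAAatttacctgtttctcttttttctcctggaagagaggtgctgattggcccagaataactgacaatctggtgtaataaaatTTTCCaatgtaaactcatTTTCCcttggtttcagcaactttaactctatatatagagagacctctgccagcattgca
Il13, chr11:53634703-53634952 (-): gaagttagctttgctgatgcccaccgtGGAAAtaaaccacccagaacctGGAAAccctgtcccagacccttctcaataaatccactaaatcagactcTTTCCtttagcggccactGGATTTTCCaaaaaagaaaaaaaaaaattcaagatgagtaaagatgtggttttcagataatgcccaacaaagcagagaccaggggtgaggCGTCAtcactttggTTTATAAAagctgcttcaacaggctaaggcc
Il6, chr5:30012864-30013113 (+): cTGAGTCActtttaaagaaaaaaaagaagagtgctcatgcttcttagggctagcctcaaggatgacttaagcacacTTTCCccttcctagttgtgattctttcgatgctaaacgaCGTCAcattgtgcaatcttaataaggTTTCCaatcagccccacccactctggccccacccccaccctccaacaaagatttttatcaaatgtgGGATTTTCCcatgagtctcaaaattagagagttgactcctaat

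The Nr4a1 promoter held 4 short cyclic AMP elements, at 233, 213, 69 and 40 bases before the start, and an EGR site at 60 bases. The Areg promoter held the full element at 61 bases, a further short element at 115 bases, an NFAT core at 163 bases and a TATA box at 31 bases. The Il4 window shown held 5 NFAT cores and no other searched motif. The Il13 promoter held 4 NFAT cores, an NF-κB form at 135 bases, a short cyclic AMP element at 45 bases and a TATA box. The Il6 promoter held an AP-1 site at 249 bases, 3 NFAT cores, a short cyclic AMP element at 135 bases and an NF-κB form at 43 bases. In both promoters 1 of the NFAT cores lies inside the NF-κB form. Short motifs are common: among 12404 windows of 300 bases from 9765 matched genes, GGAAA lay in 59.6% and TGACG in 30.7%. GGAAA lay in 62.3%, 61.3% and 60.6%, and TGACG in 31.2%, 27.9% and 26.4%, of the windows of called genes at least 4-fold higher, at least 2-fold higher and at least 2-fold lower.

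The AP-1 site, the TATA box and the NF-κB form lay in a larger share of windows in each of the 3 called sets than among all windows. The shares of the NFAT core, given above, were near that of all windows. The AP-1 letters TGANTCA lay in 15.9% of the 138 windows of genes at least 4-fold higher, 10.2% of the 599 windows of genes at least 2-fold higher and 7.81% of the 269 windows of genes at least 2-fold lower, against 5.32% of all windows. TATAAA lay in 14.5%, 10.4% and 8.18% of the same 3 sets, against 7.21% of all windows. The full element TGACGTCA lay in 4.35%, 3.51% and 1.86%, against 2.97%. The NF-κB form lay in 2.90% (4 windows), 2.50% (15 windows) and 2.23% (6 windows), against 1.47%. The EGR site lay in 9.42%, 11.7% and 9.67%, against 10.2% of all windows. The CArG box, bound by serum response factor, lay in 2.17%, 3.01% and 0%, against 1.32%. These shares are descriptions of letters, with several windows for some genes, and were not tested.

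Krüppel-like factors rose more often than they fell, and lineage factors changed in both directions. Of 12 tested Krüppel-like factors, 6 rose (50%, against 17.8% over all genes tested) and 2 fell (16.7%, near the 17.3%). Their median log2 fold change was 0.23, and -0.10 with library totals alone. Klf5 averaged 326 ± 11.9 CPM after antigen and 105 ± 2.84 CPM in the control (log2 fold change 1.63 ± 0.05), and Klf10 rose by 1.02 ± 0.07. Klf2, a quiescence factor in lymphocytes, averaged 12.6 ± 1.29 CPM after antigen and 22.5 ± 0.866 CPM in the control (-0.83 ± 0.17), and Klf7 changed by -0.61 ± 0.05. Among 30 lineage factors, 9 rose and 9 fell, 30% each way (median 0.02, and -0.30 with library totals alone). The risers were led by Irf4, a plasma cell and T cell factor (log2 fold change 1.69 ± 0.17), the repressor gene Bach1 (1.47 ± 0.05) and Runx2 (1.37 ± 0.06). Ikzf2, which encodes Helios, stood at 64.3, 77.1 and 68.3 CPM after antigen and 181, 179 and 175 CPM in the control (-1.35 ± 0.06).

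Cytokine genes rose broadly. Of 31 listed cytokines and growth factors, 24 passed the filter, and 19 rose and 1 fell, 18 of the risers by at least 2-fold. The median log2 fold change was 1.72, and 1.39 with library totals alone, against -0.05 over all genes tested. Il4, the hallmark basophil cytokine, stood at 2244, 2803 and 2546 CPM in the antigen libraries, against 255, 274 and 266 CPM in the control libraries, a change of 3.26 ± 0.08 on the log2 scale or 9.56-fold (edgeR, adjusted p = 1.43e-14). Il13, its partner in type 2 responses, stood at 786, 855 and 834 CPM after antigen, against 94.7, 103.64 and 92.1 CPM in the control (3.09 ± 0.06; edgeR, adjusted p = 1.78e-25). Both genes already had over 90 CPM in every control library. Their groups did not overlap, as for 43.4% of all genes tested. Il6, a pleiotropic inflammatory cytokine, stood at 5173, 5145 and 4973 CPM after antigen and 685, 695 and 672 CPM in the control (2.90 ± 0.07).

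Growth factors and TNF family ligands followed. Areg, the epidermal growth factor receptor ligand amphiregulin, stood at 1067, 1209 and 1115 CPM after antigen and 155, 141 and 148 CPM in the control (log2 fold change 2.93 ± 0.07). Csf1, the macrophage growth factor, averaged 3408 ± 38.6 CPM after antigen and 856 ± 34.6 CPM in the control (1.99 ± 0.04), and the IL-6 family genes Lif and Osm rose by 2.81 ± 0.12 and 2.36 ± 0.12. Spp1, which encodes osteopontin, was among the 10 largest gains in CPM, at 6829, 6251 and 6194 CPM after antigen and 1285, 1377 and 1332 CPM in the control (2.27 ± 0.04). Inhba, the activin A subunit, averaged 367 ± 9.45 CPM after antigen and 45.9 ± 3.32 CPM in the control (3.01 ± 0.08). Tnf rose to 450.1 ± 15.8 CPM after antigen, against 186 ± 11.7 CPM in the control (1.27 ± 0.06). The faller was Pdgfb, a platelet-derived growth factor chain, at 34.8, 32.9 and 34.5 CPM after antigen and 88.8, 75.6 and 71.4 CPM in the control (-1.21 ± 0.09).

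Of 19 tested chemokine genes, 11 rose and 3 fell (median log2 fold change 0.86, and 0.54 with library totals alone). Ccl4 and Ccl3, which attract monocytes and lymphocytes, were among the 10 largest gains in CPM. Ccl4 stood at 25971, 27422 and 25148 CPM after antigen, against 2997, 3119 and 2994 CPM in the control (3.11 ± 0.04; edgeR, adjusted p = 7.71e-24). Ccl3 stood at 18329, 18668 and 18194 CPM after antigen, against 2148, 2193 and 2295 CPM in the control (3.06 ± 0.05; edgeR, adjusted p = 1.25e-18). The groups were separated by about the same factor for both genes. The neutrophil attractant gene Cxcl2 averaged 1376 ± 49.8 CPM after antigen and 272 ± 8.57 CPM in the control (2.34 ± 0.10), the monocyte attractant gene Ccl7 rose by 2.37 ± 0.14, and the scarce Xcl1 rose by 2.80 ± 0.33. The fallers were Cxcl10, the interferon-inducible ligand of CXCR3, at 50.8, 50.6 and 39.2 CPM after antigen and 75.5, 71.9 and 77.6 CPM in the control (-0.68 ± 0.12), with Ccl5 (-0.43 ± 0.08) and Cxcl16 (-0.18 ± 0.05).

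**Figure D2:**
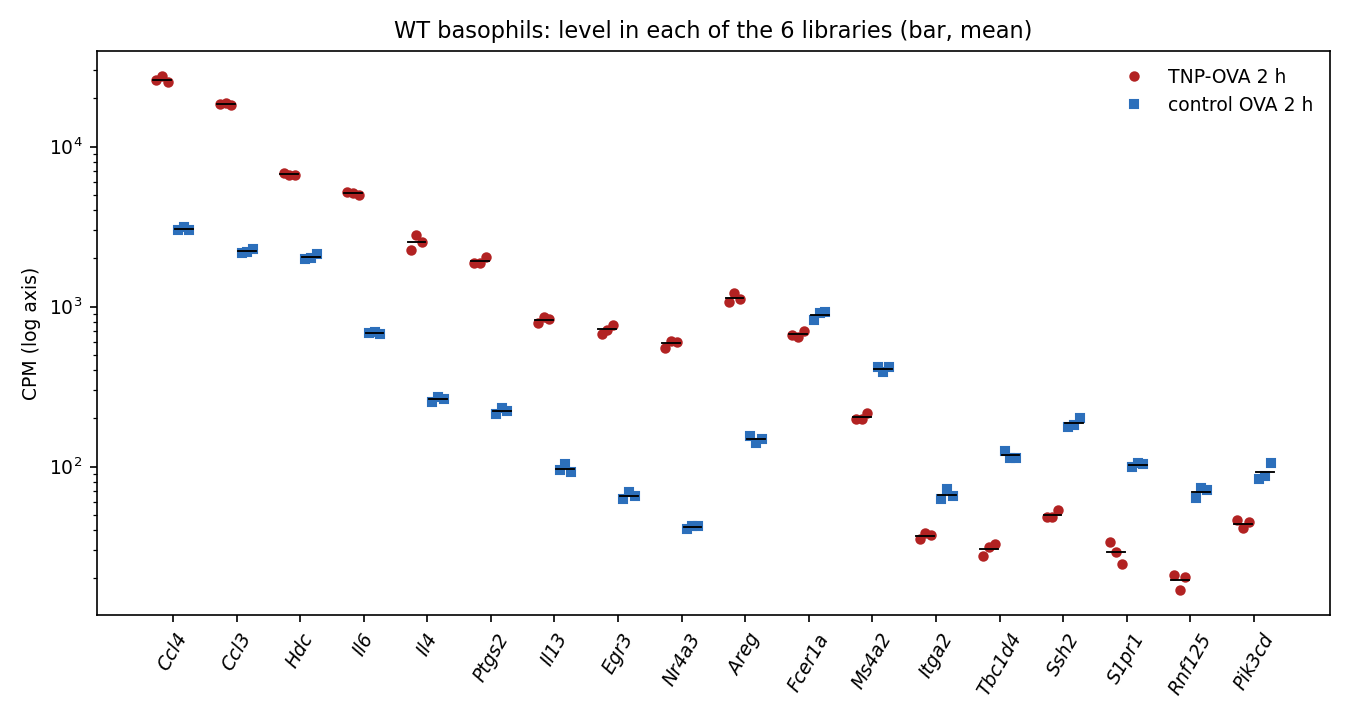
Level of 18 named genes in each of the 6 WT libraries (y axis, CPM on a log axis), with TNP-OVA 2 h as red circles left of control OVA 2 h as blue squares and black bars at the group means. The first 10 genes, from Ccl4 to Areg, are higher in all 3 antigen libraries and the last 8, from Fcer1a to Pik3cd, are lower in all 3. Over all genes tested, the groups do not overlap for 43.4%.

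Genes of mediator synthesis were split between those that rose and those that fell. Of 24 tested genes of histamine, prostaglandin and leukotriene metabolism and sensing, 7 rose and 7 fell (median log2 fold change 0.03, and -0.29 with library totals alone). Hdc, the histidine decarboxylase that makes histamine, stood at 6872, 6628 and 6628 CPM after antigen, against 1979, 2010.4 and 2138 CPM in the control (1.72 ± 0.04; edgeR, adjusted p = 9.58e-24). Slc18a2, the vesicular transporter that loads amines into granules, averaged 337 ± 12.00 CPM after antigen and 193 ± 6.45 CPM in the control (0.80 ± 0.06). Ptgs2, the inducible cyclooxygenase, stood at 1863, 1879 and 2045 CPM after antigen and 212, 233 and 222 CPM in the control (3.12 ± 0.09). Each antigen library was above each control library, as for 21.2% of all genes tested. Among prostaglandin receptors, Ptger2 (1.39 ± 0.13) and Ptger4 (0.97 ± 0.09) rose, while Ptger3 (-1.12 ± 0.08) and the prostaglandin F receptor gene Ptgfr (-1.97 ± 0.30) fell. Alox12e, an epidermis-type lipoxygenase gene, averaged 9.28 ± 0.738 CPM after antigen and 26.1 ± 2.61 CPM in the control (-1.50 ± 0.15).

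Genes of granule proteins, their processing and protease inhibition rose more often than they fell, whereas genes of granule docking were mixed. Of 21 tested genes of this first list, 9 rose and 3 fell (median log2 fold change 0.34, and 0.02 with library totals alone). Serpinb2, a protease inhibitor also called PAI-2, stood at 454, 462 and 469 CPM after antigen and 68.3, 70.8 and 71.6 CPM in the control (2.72 ± 0.06). Srgn, the core of the granule proteoglycan serglycin, averaged 7198 ± 106 CPM after antigen and 3178 ± 53.2 CPM in the control (1.18 ± 0.03). Gzmb, the protease granzyme B, averaged 861 ± 22.7 CPM after antigen and 218 ± 20.8 CPM in the control (1.98 ± 0.09), and Ctsc, which activates granule serine proteases, rose 2.46-fold. The fallers were Ndst2, an enzyme of heparin sulfation (-1.16 ± 0.10), Ctsg (-0.21 ± 0.04) and Cpa3 (-0.12 ± 0.03).

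Of 24 tested SNARE, Rab and exocytosis genes, 7 rose and 6 fell (median log2 fold change -0.08, and -0.40 with library totals alone), and no riser reached 2-fold. Rab27a, a GTPase that docks secretory granules, stood at 40.9, 45.6 and 42.7 CPM after antigen and 97.5, 101.64 and 94.01 CPM in the control (-1.18 ± 0.08; edgeR, adjusted p = 2.03e-13). Rab37 (-0.83 ± 0.07), Rab3d (-0.64 ± 0.11) and the Rab27 effector gene Sytl2 (-0.66 ± 0.10) also fell. For these 4 genes no antigen library reached the lowest control library, as for 22.2% of all genes tested.

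Genes of the IgE receptor complex moved in different directions. Fcer1a, the IgE-binding chain, stood at 661, 649.6 and 703 CPM after antigen and 826, 917 and 918 CPM in the control (-0.40 ± 0.04; edgeR, adjusted p = 7.45e-09). Ms4a2, the β chain, stood at 199, 199.6 and 216 CPM after antigen and 416, 391.96 and 419 CPM in the control (-0.997 ± 0.06). The γ chain gene Fcer1g rose, to 2252 ± 159.9 CPM after antigen, against 1526 ± 58.5 CPM in the control (0.56 ± 0.04). The groups did not overlap for any of the 3 chains, as for 43.4% of all genes tested. Across 31 tested genes of the receptor and proximal signalling, 12 rose and 7 fell (median 0.12, and -0.21 with library totals alone). The adaptor gene Lcp2, which encodes SLP-76, averaged 395 ± 9.51 CPM after antigen and 161 ± 3.36 CPM in the control (1.29 ± 0.05), and Rasgrp1, a Ras exchange factor gene, rose by 1.14 ± 0.18. Plcg1 (-0.55 ± 0.13) and Syk (-0.16 ± 0.04) fell; the Syk change was not called in a fit of the compared libraries alone. The ubiquitin ligase gene Cblb rose by 0.58 ± 0.13, a call lost with library totals alone.

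Among 22 tested inhibitory receptors and phosphatases, 9 rose and 6 fell, and 3 fell without antigen replicate 3 or in a fit of the compared libraries alone (median 0.14, and -0.19 with library totals alone). Lilrb4a, an inhibitory receptor gene, averaged 5379.8 ± 114 CPM after antigen and 2956 ± 56.95 CPM in the control (0.86 ± 0.04). Ptpn22, a phosphatase of antigen receptor signalling, stood at 14.7, 19.2 and 14.02 CPM after antigen and 7.05, 6.48 and 3.88 CPM in the control (1.48 ± 0.26), and Ptpn6, which encodes SHP-1, rose by 0.54 ± 0.06. The inhibitory IgG receptor gene Fcgr2b (-0.36 ± 0.04) and the adaptor gene Dok1 (-0.52 ± 0.09) fell. Fcgr3, the activating IgG receptor gene, was among the 10 largest losses in CPM, at 363, 339 and 356 CPM after antigen and 619.7, 619 and 614 CPM in the control (-0.81 ± 0.04).

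Calcium genes rose more often than they fell. Of 26 tested genes of calcium entry, calcineurin and NFAT, 8 rose (30.8%, against 17.8% over all genes tested). The fallers were 5 (19.2%, near the 17.3% over all genes tested), and 3 without control replicate 3 or without antigen replicate 1. The median was 0.06, and -0.27 with library totals alone. Orai1, the pore of the store-operated channel, stood at 330.5, 319 and 320.02 CPM after antigen and 113, 124 and 123 CPM in the control (1.43 ± 0.05). Stim1, the calcium sensor that opens it, averaged 38.02 ± 2.35 CPM after antigen and 61.5 ± 2.39 CPM in the control (-0.69 ± 0.09). The calcium pump gene Atp2b1 (1.13 ± 0.06), the cation channel gene Trpm4 (1.06 ± 0.09), the potassium channel gene Kcnn4 (0.81 ± 0.05) and Nfatc1 (1.08 ± 0.06) rose.

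PI3-kinase genes fell more often than they rose. Of 22 tested subunits and regulators, 3 rose and 7 fell, and 5 rose without antigen replicate 1 (median -0.13, and -0.45 with library totals alone). Pik3ip1, an inhibitor of the kinase, stood at 3.46, 2.21 and 2.43 CPM after antigen and 13.1, 12.1 and 13.97 CPM in the control (-2.29 ± 0.21; edgeR, adjusted p = 4.83e-10). The leukocyte catalytic subunit genes Pik3cd and Pik3cg averaged 44.04 ± 2.43 and 45.3 ± 5.86 CPM after antigen, against 92.5 ± 11.5 and 83.9 ± 10.1 CPM in the control (-1.08 ± 0.09 and -0.90 ± 0.09). The risers were the adaptor gene Pik3ap1 (1.15 ± 0.07), Akt2 (0.88 ± 0.05) and the phosphatase gene Phlpp2 (0.87 ± 0.20).

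Feedback inhibitors of signalling rose strongly in the MAP kinase arm. Of 22 tested MAP kinase phosphatases, Sprouty and Spred genes, 13 rose, 11 of them by at least 2-fold, and 2 fell, Rasa3 (-0.61 ± 0.07) and Dusp7. The median log2 fold change was 1.01, and 0.68 with library totals alone. Dusp5, a nuclear ERK phosphatase gene, stood at 456, 476 and 501 CPM after antigen and 82.6, 70.8 and 81.8 CPM in the control (2.60 ± 0.07). Errfi1, an inhibitor of the EGF receptor (2.55 ± 0.10), Spry2 (2.35 ± 0.09) and Dusp1 (1.72 ± 0.07) rose too. Spry4 had the largest fold change of the list but few counts, at 3.79, 5.94 and 4.72 CPM after antigen and 0.231, 0.166 and 0.097 CPM in the control (4.79 ± 0.49). The adjusted p of Dusp7 was 0.0235 (edgeR) and ranged from 0.00372 to 0.24 on leaving out 1 library, above 0.05 without control replicate 3 or antigen replicate 1 or 2.

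Of 24 tested SOCS, Pim and cytokine feedback genes, 12 rose, 5 of them by at least 2-fold. The fallers were 6 (25%, against 17.3% over all genes tested). The median log2 fold change was 0.38, and 0.05 with library totals alone. Socs1, Cish and Socs3, inhibitors of JAK and STAT signalling, averaged 338 ± 18.99, 544 ± 13.5 and 332 ± 14.2 CPM after antigen, against 73.6 ± 2.37, 134 ± 14.6 and 91.8 ± 4.46 CPM in the control, with log2 fold changes of 2.20 ± 0.06, 2.03 ± 0.07 and 1.85 ± 0.07. The survival kinase gene Pim3 rose by 2.22 ± 0.07. Stat5b, the transducer of the IL-3 signal, averaged 56.3 ± 2.59 CPM after antigen and 103 ± 7.83 CPM in the control (-0.87 ± 0.07). Of 26 tested NF-κB genes, 9 rose and 4 fell (median 0.10, and -0.22 with library totals alone), led by the nuclear IκB genes Nfkbid (1.75 ± 0.07) and Nfkbiz (0.93 ± 0.07). Rel (0.60 ± 0.07) and the deubiquitinase partner gene Tnip3 (0.61 ± 0.08) rose, and Cyld, a deubiquitinase gene that restrains the pathway, fell by 0.75 on the log2 scale.

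G protein and ubiquitin genes were mixed, and mRNA decay regulators rose more often than they fell. Among 24 tested RGS and G protein genes, 9 rose and 11 fell (median 0.05, and -0.27 with library totals alone). Rgs16 averaged 61.9 ± 7.16 CPM after antigen and 10.2 ± 1.88 CPM in the control (2.60 ± 0.14), Rgs1 rose by 1.26 ± 0.04, and the receptor kinase gene Grk6 changed by -0.73 ± 0.13. Among 30 tested mRNA decay regulators, 12 rose (40%, against 17.8% over all genes tested) and 4 fell (13.3%, against 17.3%). In a fit of the compared libraries alone 2 fell. The median was 0.05, and -0.27 with library totals alone. Zfp36, which encodes tristetraprolin, stood at 446, 459.9 and 439 CPM after antigen and 224, 239 and 247 CPM in the control (0.92 ± 0.05; edgeR, adjusted p = 2.32e-14), and its relative Zfp36l1 rose by 1.32 ± 0.05. Arid5a, which protects Il6 mRNA in macrophages, rose by 0.82 ± 0.10. Among 38 tested ubiquitin ligase genes of immune signalling, 14 rose and 9 fell (median 0.15, and -0.18 with library totals alone). Asb2 (1.89 ± 0.11) and Rnf19b (1.56 ± 0.13) rose, while Rnf125 averaged 19.5 ± 2.16 CPM after antigen and 69.3 ± 5.23 CPM in the control (-1.83 ± 0.11), and Rnf144b changed by -1.37 ± 0.12.

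**Figure D3:**
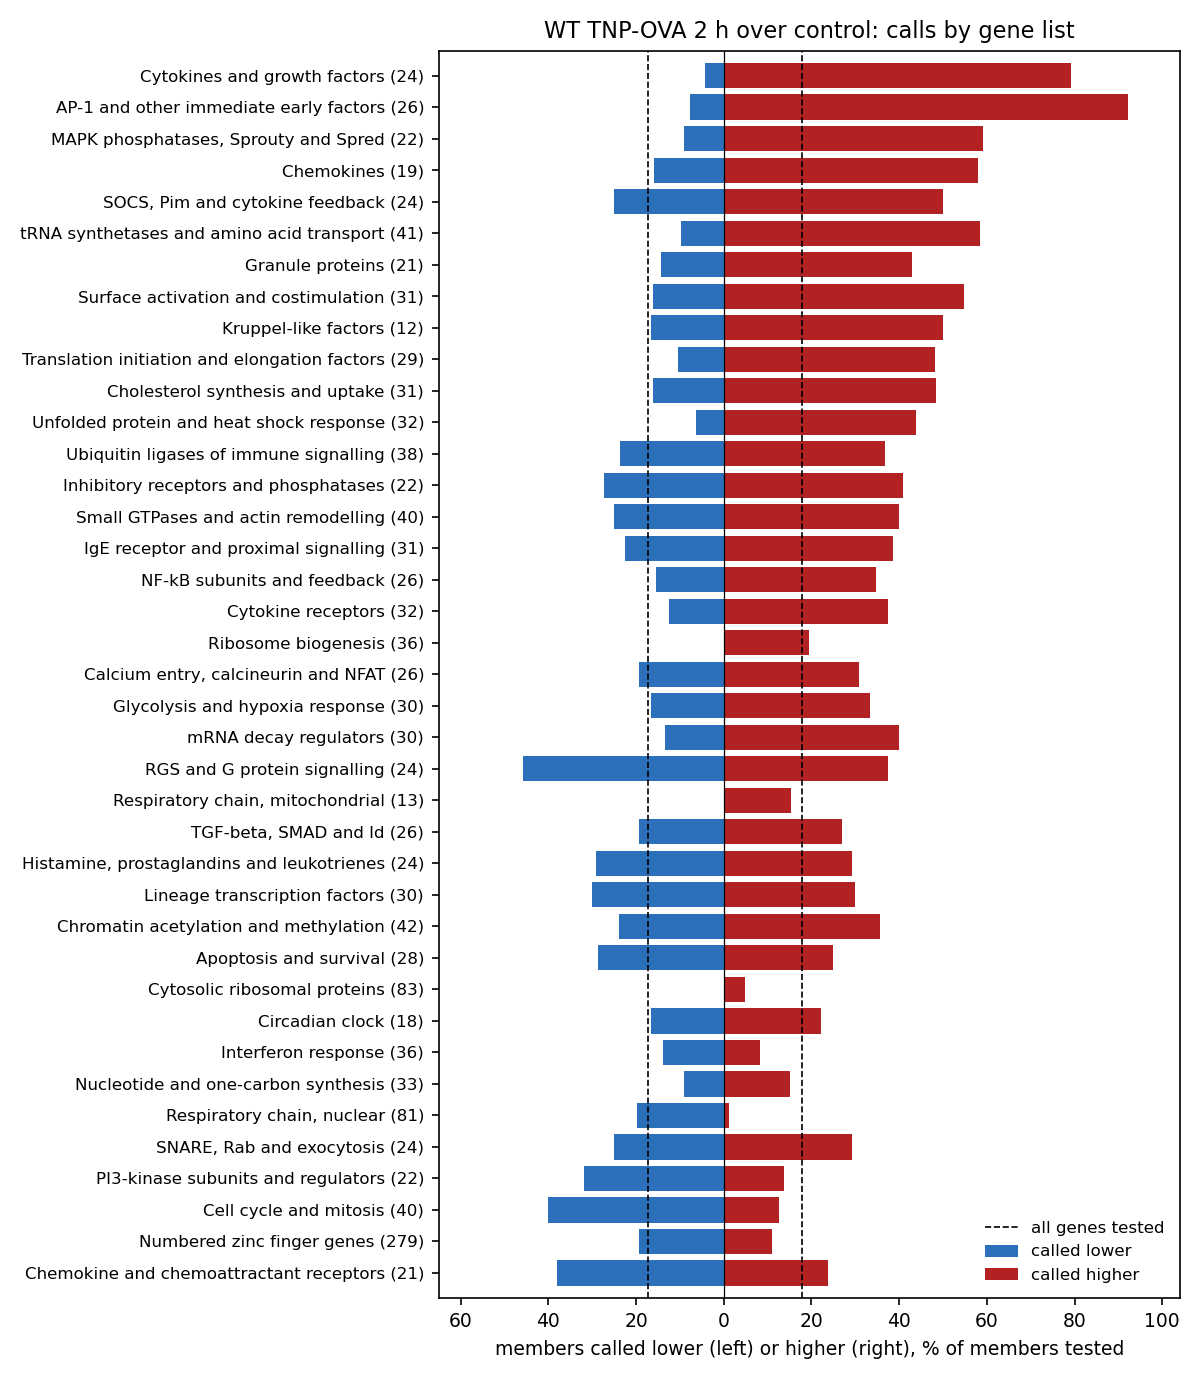
Share of the tested members of each of 39 gene lists called higher (red, right of 0) and lower (blue, left of 0) after 2 h of antigen, in percent of the members tested, whose number is in brackets. Lists run down the page by falling median log2 fold change, and dashed lines mark the shares over all genes tested, 17.8% higher and 17.3% lower.

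More surface receptors of activated cells rose than fell. Of 31 tested activation and costimulation genes, 17 rose and 5 fell (median log2 fold change 0.32, and -0.01 with library totals alone). Havcr2, which encodes TIM-3, stood at 555, 555 and 592 CPM after antigen and 131, 119.9 and 127 CPM in the control (2.17 ± 0.05). The PD-1 ligand genes Pdcd1lg2 (1.67 ± 0.06) and Cd274 (1.15 ± 0.05), the early activation marker gene Cd69 (1.57 ± 0.08) and Tnfrsf9, which encodes 4-1BB (1.32 ± 0.28), rose as well. Itga2, which encodes the CD49b used to select the cells, stood at 35.5, 38.3 and 37.3 CPM after antigen and 62.9, 72.4 and 65.2 CPM in the control (-0.85 ± 0.08).

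Of 32 tested cytokine receptor genes, 12 rose and 4 fell (median 0.08, and -0.24 with library totals alone). Il1rl1, the IL-33 receptor, stood at 929, 1018 and 1242 CPM after antigen and 435, 447 and 515 CPM in the control (1.19 ± 0.10). Il18r1, an IL-18 receptor chain, moved the other way, at 130.02, 122 and 147 CPM after antigen and 298, 288 and 288 CPM in the control (-1.13 ± 0.06). The scarce Il2ra rose by 1.37 ± 0.35 and Il6st, the shared gp130 chain, by 0.96 ± 0.09.

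Receptors for chemoattractants were the list with the lowest median of the 39 function lists, -0.19, and -0.52 with library totals alone. Of 21 tested members 5 rose and 8 fell. S1pr1, the sphingosine phosphate receptor that guides cells out of tissue, stood at 33.8, 29.03 and 24.5 CPM after antigen and 100.02, 105 and 103 CPM in the control (-1.82 ± 0.10; edgeR, adjusted p = 1.99e-15). The histamine receptor gene Hrh4 (-1.51 ± 0.19) and Cx3cr1 (-1.29 ± 0.24) fell as well. Ccr1, a receptor for the induced Ccl3, stood at 997, 984 and 1022 CPM after antigen and 393, 415 and 405 CPM in the control (1.31 ± 0.04). The complement receptor genes C5ar2 (1.24 ± 0.09) and C5ar1 (1.21 ± 0.06) and the chemokine receptor gene Cxcr4 (1.14 ± 0.04) rose too.

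Actin genes rose, and genes of actin remodelling moved both ways. Actb and Actg1, the cytoplasmic actins, were among the 10 largest gains in CPM. Actb stood at 21604, 20676 and 21788 CPM after antigen and 9457, 9666 and 9976 CPM in the control (1.14 ± 0.03), and Actg1 averaged 7114 ± 105 CPM after antigen and 3537 ± 142 CPM in the control (1.01 ± 0.04). Among 40 tested genes of small GTPases and actin remodelling, 16 rose and 10 fell (median 0.13, and -0.20 with library totals alone). Vcl, which encodes vinculin, averaged 479 ± 23.4 CPM after antigen and 174 ± 7.80 CPM in the control (1.46 ± 0.06), and the small GTPase gene Rhov rose by 1.90 ± 0.13. Ssh2, a phosphatase that activates the actin-severing protein cofilin, stood at 48.3, 48.1 and 53.7 CPM after antigen and 177, 183 and 200.04 CPM in the control (-1.90 ± 0.06; edgeR, adjusted p = 1.03e-19).

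Uptake of amino acids and initiation of translation were represented among the risers. Of 41 tested tRNA synthetase and amino acid transport genes, 24 rose and 4 fell (median log2 fold change 0.35, and 0.02 with library totals alone). The amino acid transporter gene Slc7a5 stood at 743, 726 and 787 CPM after antigen and 243, 239 and 269 CPM in the control (1.58 ± 0.05), and Slc38a1 (1.80 ± 0.05) and Slc7a1 (1.68 ± 0.08) rose too. The glycine transporter gene Slc6a9 averaged 62.8 ± 7.39 CPM after antigen and 135 ± 8.06 CPM in the control (-1.10 ± 0.08). Of 29 tested translation factors, 14 rose and 3 fell (median 0.21, and -0.12 with library totals alone). Eif4a1, the initiation helicase, averaged 725 ± 12.2 CPM after antigen and 369 ± 8.75 CPM in the control (0.98 ± 0.04), the cap-binding gene Eif4e rose by 0.79 ± 0.09, and Eif4ebp2, an inhibitor of eIF4E, changed by -0.70 ± 0.07.

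Genes of ribosome production changed little. Of 36 tested ribosome biogenesis genes, 7 rose and 0 fell by edgeR and by DESeq2 (2 fell at an unadjusted p under 0.05). The share that rose was 19.4%, near the 17.8% over all genes tested, of which 17.3% fell. The median was 0.06, and -0.26 with library totals alone. Ddx21 rose by 0.55 ± 0.11, a call lost with library totals alone. With library totals alone 16 fell, and without control replicate 1 and control replicate 3 the counts were 1 and 2. Among 83 tested cytosolic ribosomal protein genes, many of which have near-identical copies, 4 were called higher (4.82%, against 17.8% over all genes tested) and 0 lower by edgeR and by DESeq2 (1 lower at an unadjusted p under 0.05). The 4 were Rpl10, Rpl19, Rpl7l1 and Rps7. Without control replicate 3 the count was 1 higher and 1 lower, without antigen replicate 2 it was 2 higher, with library totals alone 37 were lower, and Rpl19 (0.15 ± 0.04) and Rpl7l1 had a log2 fold change below 0 with library totals alone.

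Genes of cholesterol and of glycolysis and hypoxia rose more often than they fell. Of 31 tested cholesterol genes, 15 rose (48.4%, against 17.8% over all genes tested) and 5 fell (16.1%, near the 17.3% over all genes tested). Their median was 0.19, and -0.14 with library totals alone. The cholesterol synthesis gene Hsd17b7 averaged 20.6 ± 2.79 CPM after antigen and 7.89 ± 1.26 CPM in the control (1.41 ± 0.15). The pathway genes Cyp51 (1.15 ± 0.06) and Msmo1 (0.80 ± 0.08) rose. Of 30 tested glycolysis and hypoxia genes, 10 rose (33.3%, against 17.8%) and 5 fell (16.7%, near the 17.3%). Their median was 0.06, and -0.27 with library totals alone. Pfkfb3, which makes an activator of glycolysis, averaged 78.8 ± 0.723 CPM after antigen and 35.9 ± 2.37 CPM in the control (1.14 ± 0.09), and Vegfa rose by 1.06 ± 0.16. Hk2, a hexokinase gene, averaged 29.3 ± 4.32 CPM after antigen and 64.00 ± 6.53 CPM in the control (-1.12 ± 0.10). Ftl1, the ferritin light chain and one of the 10 largest gains in CPM, averaged 10616 ± 241 CPM after antigen and 6996 ± 160.2 CPM in the control (0.60 ± 0.03); it has processed copies.

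Of 33 tested nucleotide and one-carbon genes, 5 rose (15.2%, against 17.8% over all genes tested) and 3 fell (9.09%, against 17.3%). Their median was -0.04, against -0.05 over all genes tested. The pyrimidine synthesis gene Cad fell, at 5.34 ± 0.21 CPM after antigen and 9.09 ± 0.889 CPM in the control (-0.77 ± 0.18). Among 32 tested genes for heat shock and unfolded protein responses, 14 were called higher and 2 lower, with a median of 0.15 (-0.17 with library totals alone). Both decreases were lost with DESeq2 and without control replicate 1. The endoplasmic reticulum sensor gene Ern1 (0.65 ± 0.09) and the chaperone gene Hspa5 (0.57 ± 0.04) rose. Of 81 tested nuclear genes of the respiratory chain, 1 rose (1.23%, against 17.8% over all genes tested) and 16 fell (19.8%, against 17.3%; median -0.06, and -0.39 with library totals alone), with Ndufa10 at 50.1 ± 1.76 CPM after antigen and 64.97 ± 1.12 CPM in the control (-0.38 ± 0.07). The count of risers was 5 without control replicate 1. Of 13 mitochondrial genes, 2 rose (15.4%, near the 17.8% over all genes tested). Of these, mt-Co1 averaged 7683 ± 175 CPM after antigen and 7199 ± 87.7 CPM in the control (0.09 ± 0.03), a change that has the opposite sign with library totals alone. The other, mt-Atp6, had an adjusted p of 0.049 (edgeR) that ranged from 0.0153 to 0.128 and stayed under 0.05 only without control replicate 3.

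Cell cycle genes were more often lower than higher. Of 40 tested members, 5 rose and 16 fell (median -0.18, and -0.50 with library totals alone). The G1 cyclin gene Ccnd2 stood at 284, 307 and 324 CPM after antigen and 71.9, 79.1 and 73.4 CPM in the control (2.03 ± 0.07). The cyclin-dependent kinase inhibitor genes Cdkn1a, which encodes p21, and Cdkn1b, which encodes p27, moved apart. Cdkn1a averaged 1154 ± 18.2 CPM after antigen and 492 ± 14.8 CPM in the control (1.23 ± 0.04), and Cdkn1b averaged 100.1 ± 6.10 CPM after antigen and 223 ± 5.27 CPM in the control (-1.16 ± 0.07). Kif2c, a mitotic kinesin gene, changed by -1.04 ± 0.21.

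Of 28 tested apoptosis genes, 7 rose and 8 fell (median 0.01, and -0.32 with library totals alone). The BH3-only death genes split: Pmaip1, which encodes Noxa, stood at 270.3, 293 and 251 CPM after antigen and 72.04, 73.7 and 79.6 CPM in the control (1.85 ± 0.07), and Bcl2l11, which encodes Bim, rose by 1.58 ± 0.05. Bmf averaged 7.98 ± 1.65 CPM after antigen and 22.2 ± 0.903 CPM in the control (-1.48 ± 0.15). Phlda1, an apoptosis-related gene, rose by 1.90 ± 0.13, and Cflar, an inhibitor of caspase-8, by 0.83 ± 0.05. Plk3, a stress kinase gene outside the lists, stood at 1650.1, 1618 and 1626 CPM after antigen and 178, 199 and 196 CPM in the control (3.10 ± 0.06).

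Of 26 tested TGF-β, SMAD and Id genes, 7 rose and 5 fell (median 0.04, and -0.28 with library totals alone). Id2 and Id3, inhibitors of basic helix-loop-helix factors, moved apart: Id2 stood at 1618, 1540.2 and 1536 CPM after antigen and 323, 336 and 310.3 CPM in the control (2.28 ± 0.05), while Id3 stood at 15.5, 14.5 and 13.2 CPM after antigen and 50.5, 41.4 and 35.5 CPM in the control (-1.56 ± 0.13). Of 18 tested clock genes, 4 rose (22.2%) and 3 fell (16.7%), shares near the 17.8% and 17.3% over all genes tested (median -0.01, and -0.34 with library totals alone). The call of Per2, a riser, was lost in 3 of the alternatives, and that of Per3, a faller, in 9. The clearest riser was Nfil3, which averaged 371 ± 8.85 CPM after antigen and 129 ± 4.13 CPM in the control (1.52 ± 0.06), and Bhlhe40 (1.04 ± 0.07). Of 42 tested chromatin genes, 15 rose and 10 fell (median 0.01, and -0.32 with library totals alone). The risers included the DNA demethylation gene Tet3 (1.56 ± 0.05), the histone methyltransferase gene Dot1l (1.51 ± 0.06) and the histone demethylase genes Kdm6b (1.31 ± 0.06) and Kdm1a (0.99 ± 0.06).

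Few interferon response genes were called. Of 36 tested genes, 3 rose (8.33%, against 17.8% over all genes tested) and 5 fell (13.9%, against 17.3%), and 3 fell without control replicate 1 or without antigen replicate 2 (median -0.04, and -0.37 with library totals alone). Isg20, an exonuclease gene, rose by 0.89 ± 0.10. Of 279 tested numbered zinc finger genes, mostly KRAB-type repressors, 31 rose (11.1%, against 17.8% over all genes tested) and 54 fell (19.4%, against 17.3%), with a median of -0.18, and -0.50 with library totals alone.

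Among the 12 largest decreases by the same rule, Nxpe4 had the steepest of the genes with a name, at 6.27, 6.50 and 4.31 CPM after antigen and 30.6, 31.1 and 38.3 CPM in the control (-2.56 ± 0.16; edgeR, adjusted p = 2.16e-13). Tbc1d4, a Rab GTPase-activating gene of glucose transporter traffic, stood at 27.6, 31.2 and 32.6 CPM after antigen and 126, 113 and 114 CPM in the control (-1.94 ± 0.10). For both genes the rule required groups that did not overlap, so their separation is no further support. The sialyltransferase gene St6galnac5 (-1.98 ± 0.26) and the zinc finger gene Zfp831 (-1.95 ± 0.20) were also among the 12, with Pik3ip1, Ptgfr and Ssh2 as above. Nrarp, a Notch feedback gene, and H2-K2, of the multicopy MHC class I family, completed the named members, and 3 more, among them the steepest of the 12, are known by identifiers only. Their adjusted p values were 0.0452 and 0.0242 (edgeR). On leaving out 1 library, that of Nrarp ranged from 0.041 to 0.142, under 0.05 only without antigen replicate 3, and that of H2-K2 from 0.0309 to 0.0917, above 0.05 without control replicate 1 or 2 or antigen replicate 2 or 3.

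The 10 largest losses in CPM were led by Ubb, a polyubiquitin gene, with 1807 ± 54.1 CPM after antigen and 2609 ± 73.6 CPM in the control (-0.53 ± 0.04). Nedd4, a ubiquitin ligase gene, stood at 175, 170.3 and 198 CPM after antigen and 437, 430.3 and 440.2 CPM in the control (-1.27 ± 0.05), and Arhgap45, a GTPase-activating gene, averaged 376 ± 6.28 CPM after antigen and 726 ± 19.1 CPM in the control (-0.95 ± 0.04). Itm2b (-0.25 ± 0.04), Ifitm1 (-0.23 ± 0.06), the cathepsin D gene Ctsd (-0.14 ± 0.03), Rsrp1 (-0.59 ± 0.05) and the glutathione peroxidase gene Gpx1 (-0.45 ± 0.04) changed less steeply, and Fcgr3 and Fcer1a completed the 10. The call of Ifitm1 was lost in a fit of the compared libraries alone. The largest gain in CPM belonged to Rn18s-rs5, annotated as 18S ribosomal RNA related, at 94045, 108890.0 and 110841 CPM after antigen and 70187, 81454 and 82916 CPM in the control (0.42 ± 0.08). It made up 8.33% to 9.65% of unscaled counts in antigen libraries and 7.78% to 9.05% in control libraries, and its call was lost with library totals alone.

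Of 12 basophil markers, 5 rose (41.7%, against 17.8% over all genes tested) and 4 fell (33.3%, against 17.3%). Their summed level was 32204 to 33343 CPM in antigen libraries and 25309 to 26586 CPM in control libraries. The risers were Hdc, Slc18a2 and Mcpt8, described above, with Cyp11a1 (0.69 ± 0.04) and Cd200r3 (0.40 ± 0.04). The calls of Mcpt8 and Cd200r3 were lost with library totals alone. The fallers were Fcer1a, Ms4a2, Itga2 and Cpa3.

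Among markers of other cells, 4 of 8 tested mast cell markers and 3 of 4 tested NK and innate lymphoid markers were called, against 35.1% of all genes tested. Mast cell markers summed to 1099 to 1133 CPM after antigen and 474 to 518 CPM in the control. Within this sum Gzmb, also described with the granule genes, averaged 861 ± 22.7 CPM after antigen and 218 ± 20.8 CPM in the control. Of 8 tested members 1 rose, Gzmb, and 3 fell (2 rose without antigen replicate 1). The mast cell protease genes Mcpt1 and Mcpt2 fell, Mcpt2 to 1.15, 0.968 and 1.21 CPM after antigen, against 7.75, 8.47 and 5.43 CPM in the control (-2.68 ± 0.37), Kit fell by 0.67 on the log2 scale, and Mrgprb1 had no count in any of the 6 libraries. Neutrophil and precursor markers summed to 1721 to 2060 CPM after antigen and 1862 to 1994 CPM in the control, monocyte and macrophage markers to 4735 to 5051 CPM after antigen and 4713 to 5011 CPM in the control, and dendritic cell markers to 3819 to 4129 CPM after antigen and 4006 to 4157 CPM in the control. Within these lists 2 of 17, 3 of 15 and 1 of 8 tested markers rose and 2, 1 and 0 fell (edgeR; for the neutrophil list 1 fell without antigen replicate 1 or 2 or control replicate 2 or 3, and for the dendritic list 1 fell at an unadjusted p under 0.05 and 0 by DESeq2). The shares that rose were 11.8%, 20% and 12.5%, against 17.8% over all genes tested. Those that fell were 11.8%, 6.67% and 0%, against 17.3%. Cx3cr1, given above, was the monocyte marker that fell.

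The 4 tested NK and innate lymphoid markers summed to 268 to 284 CPM after antigen and 179.9 to 192 CPM in the control. Il7r held most of this sum, averaging 194 ± 7.06 CPM after antigen and 122 ± 8.42 CPM in the control. The listed Klrb1c, Klrd1, Eomes, Tbx21, Klra8, Gzma and Prf1 were too low to be tested, with Klra8 at 0. Of 4 tested members 2 rose and 1 fell. Nkg7, a cytotoxic granule gene, averaged 55.3 ± 1.12 CPM after antigen and 28.6 ± 0.935 CPM in the control (0.95 ± 0.09). T and B cell markers summed to 55.8 to 69.96 CPM after antigen and 53.0 to 54.1 CPM in the control. Of 6 tested members 1 rose (16.7%, near the 17.8% over all genes tested). It was Trac, the T cell receptor α constant segment, at 5.61, 5.53 and 7.95 CPM after antigen and 1.27, 0.332 and 1.07 CPM in the control (2.74 ± 0.37). The CD3 genes Cd3e, Cd3g and Cd3d were too low to be tested. Among eosinophil markers, which summed to 161 to 179 CPM after antigen and 117 to 159.7 CPM in the control, Siglecf stood at 59.1, 58.3 and 52.8 CPM after antigen and 15.6, 17.1 and 16.5 CPM in the control (1.79 ± 0.10). It was the 1 riser of 6 tested (16.7%, near the 17.8% over all genes tested). The 1 faller (16.7%, against 17.3%), Ccr3, was not called without control replicate 3 or antigen replicate 2. Erythroid markers summed to 58.3 to 61.5 CPM after antigen and 44.7 to 65.3 CPM in the control, megakaryocyte markers to 1425 to 1628 CPM after antigen and 1437 to 1775 CPM in the control, and progenitor markers to 108 to 112 CPM after antigen and 129 to 137 CPM in the control. Of 6 tested erythroid markers 2 rose (33.3%, against 17.8% over all genes tested). On leaving out 1 library 0 to 2 rose, with 0 without control replicate 3. Of 7 megakaryocyte markers 1 fell (14.3%, against 17.3% over all genes tested). That call was lost without control replicate 2 or 3 or antigen replicate 2 or 3. Of 7 progenitor markers 2 fell (28.6%, against 17.3%), or 1 without control replicate 2 or 3 or antigen replicate 1 or 3. The part of these cells in the results above was not tested.

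At 4 h of antigen most of the strong increases had receded, but not all. Tested directly, 4 h over 2 h in WT cells called 4382 genes (31.1%), 2140 higher (15.2%) and 2242 lower (15.9%), and with library totals alone 4614 were higher and 1191 lower. Over the shared 2 h control, 4 h called 2758 genes higher (19.6%) and 2592 lower (18.4%). No library received control OVA for 4 h, so longer antigen exposure and longer time in culture cannot be told apart. Of the 742 genes at least 2-fold higher at 2 h, 443 were lower at 4 h than at 2 h, 43 were higher and 256 were not called. Their median log2 fold change over the shared control was 1.49 at 2 h and 0.89 at 4 h. Of the 309 genes at least 2-fold lower at 2 h, 67 were higher at 4 h than at 2 h, 7 were lower and 235 were not called, with medians over the control of -1.29 at 2 h and -0.98 at 4 h. Because these genes were selected at 2 h, some return towards the control is built into the selection.

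The cytokines differed in how long they stayed up. Il13 stood at 94.7, 103.64 and 92.1 CPM in the control, 786, 855 and 834 CPM at 2 h and 139, 150.4 and 159.9 CPM at 4 h (4 h over 2 h, -2.46 ± 0.06; edgeR, adjusted p = 1.14e-22). Il4 averaged 265 ± 9.39 CPM in the control, 2531 ± 279.7 CPM at 2 h and 785 ± 40.4 CPM at 4 h (4 h over 2 h, -1.69 ± 0.07). Over the 2 h control, the 4 h change was 0.63 ± 0.06 for Il13 and 1.57 ± 0.08 for Il4. Il6 averaged 684 ± 11.3 CPM in the control, 5097 ± 108 CPM at 2 h and 2345 ± 222 CPM at 4 h (-1.12 ± 0.06), and Areg changed by -0.91 ± 0.07 on the log2 scale. Spp1 averaged 1331 ± 45.8 CPM in the control, 6425 ± 351 CPM at 2 h and 7803 ± 225 CPM at 4 h (0.28 ± 0.04), a further increase. For the scarce Csf2 (-0.46 ± 0.21) and Il3 (0.40 ± 0.24) the change from 2 h to 4 h was not called (edgeR, adjusted p = 0.0909 and 0.227).

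Factors and receptors varied as well. Nr4a3 averaged 41.9 ± 1.28 CPM in the control, 588 ± 30.8 CPM at 2 h and 130.01 ± 3.33 CPM at 4 h (-2.18 ± 0.05). Vcl stood at 174 ± 7.80 CPM in the control, 479 ± 23.4 CPM at 2 h and 113 ± 7.43 CPM at 4 h (-2.09 ± 0.06). At 4 h it lay below its level in the 2 h control (-0.63 ± 0.06 over that control). Later risers included the eotaxin gene Ccl24, at 3.93, 4.48 and 2.72 CPM in the control, 4.62, 6.08 and 6.61 CPM at 2 h and 46.8, 51.6 and 46.5 CPM at 4 h (3.05 ± 0.18; edgeR, adjusted p = 6.33e-13). Its small change at 2 h had an adjusted p of 0.0331 (edgeR) that ranged from 0.0205 to 0.2 on leaving out 1 library, above 0.05 without control replicate 1 or 3 or antigen replicate 2 or 3. Tnfrsf9 (2.08 ± 0.21), the adaptor gene Scimp (1.31 ± 0.16), the integrin gene Itgax (0.81 ± 0.07) and Asb2 (0.84 ± 0.10) also went on rising. Among the fallers, Ms4a2 averaged 409 ± 14.7 CPM in the control, 205 ± 9.90 CPM at 2 h and 289 ± 7.75 CPM at 4 h (0.49 ± 0.06), while Fcer1a averaged 887 ± 52.98 CPM in the control, 671 ± 28.2 CPM at 2 h and 465 ± 15.99 CPM at 4 h (-0.53 ± 0.04).

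**Figure D4:**
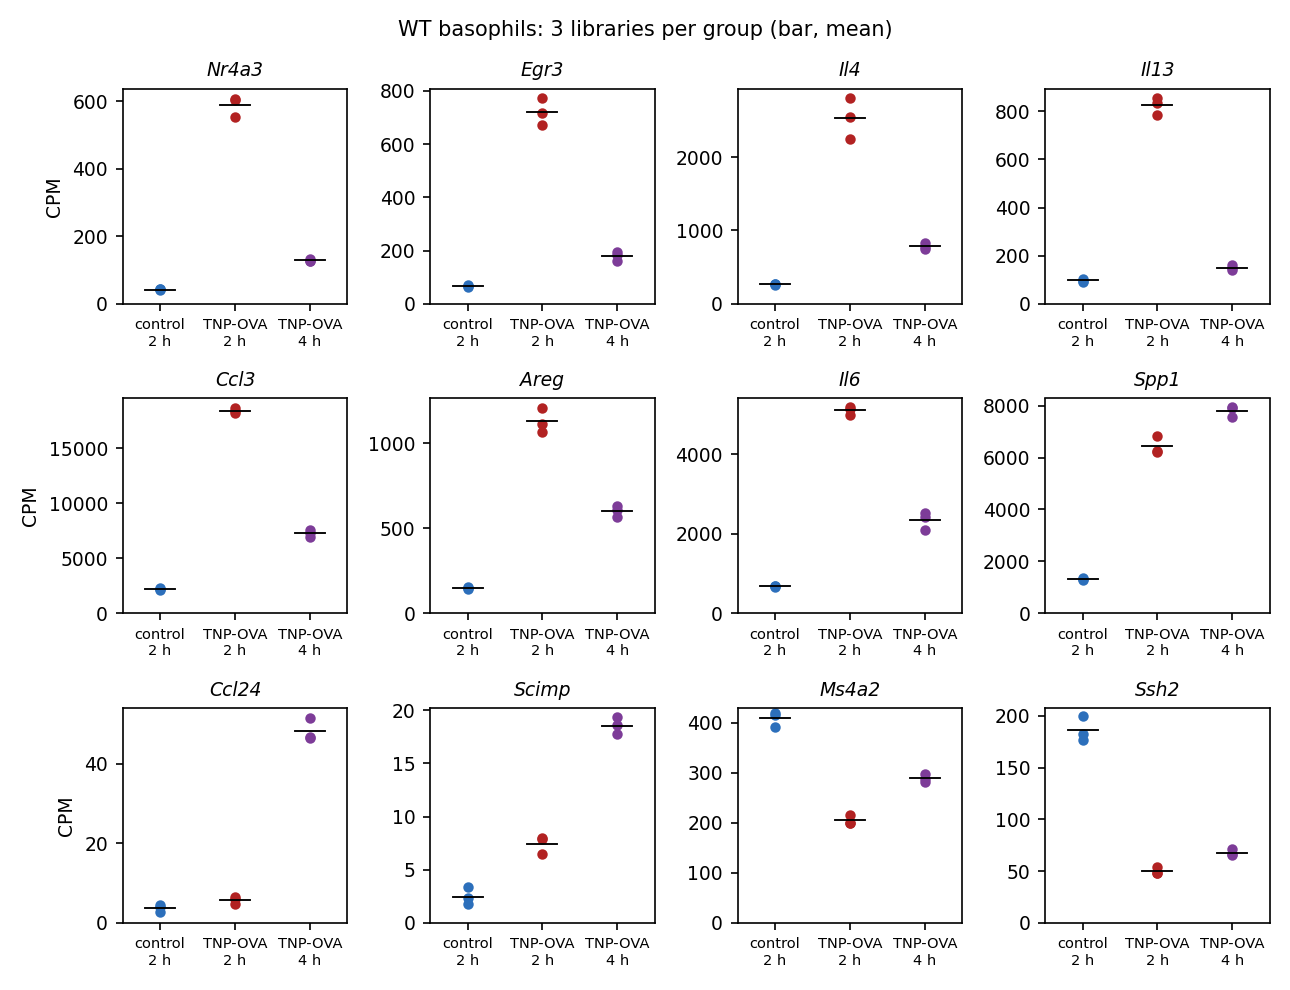
Level of 12 genes in WT libraries (y axes, CPM from 0) under control OVA 2 h (blue), TNP-OVA 2 h (red) and TNP-OVA 4 h (purple), with 3 libraries per group as points and black bars at the means. Nr4a3, Egr3, Il4, Il13, Ccl3, Areg and Il6 peak at 2 h, Spp1, Ccl24 and Scimp are highest at 4 h, and Ms4a2 and Ssh2 are lowest at 2 h.

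The 2 h response was next set against that of the libraries labelled TTP-KO. Zfp36 RNA was not lower in those libraries, at 568, 553 and 572 CPM after antigen and 219, 228 and 225 CPM in the control, so RNA levels do not check the genotype label. Antigen over control called 4852 genes (34.5%) in the libraries labelled TTP-KO. The difference between the 2 responses was called for 7 genes (0.0497% of those tested), 5 with a higher log2 fold change in the libraries labelled TTP-KO (0.0355%) and 2 with a lower one (0.0142%). Of the 742 genes at least 2-fold higher in WT, 4 were among them, and of the 309 at least 2-fold lower, 0; a difference that was not called is not shown to be absent. The alternative test of DESeq2 called 22 genes, 15 higher and 7 lower.

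Il13, Ccl3 and Rgs1 rose further in the libraries labelled TTP-KO than in WT libraries, and Nr4a3 rose less. Il13 stood at 1229.6, 1201 and 1184 CPM after antigen and 93.7, 101 and 88.2 CPM in the control in the libraries labelled TTP-KO, a log2 fold change of 3.68 ± 0.06, against 3.09 ± 0.06 in WT (difference 0.58 ± 0.08; edgeR, adjusted p = 0.00068). Ccl3 stood at 27429, 27287 and 27338 CPM after antigen and 2095, 2369.7 and 2276 CPM in the control (3.61 ± 0.05, against 3.06 ± 0.05 in WT; difference 0.55 ± 0.07; edgeR, adjusted p = 0.00139). For both genes the control levels of the genotypes were close and the antigen levels were apart. Rgs1 responded by 1.69 ± 0.04, against 1.26 ± 0.04 in WT (difference 0.43 ± 0.06). Nr4a3 went the other way, at 419.5, 429 and 402 CPM after antigen and 45.6, 45.7 and 40.7 CPM in the control (3.25 ± 0.06, against 3.81 ± 0.06 in WT; difference -0.56 ± 0.08; edgeR, adjusted p = 0.000804). These 4 calls held on leaving out each library in turn.

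The other 3 calls, Zfp36 (0.41 ± 0.08), the chromatin reader gene Phf20l1 (-0.43 ± 0.05, against -0.78 ± 0.05 in WT; difference 0.34 ± 0.07) and Tufm, a mitochondrial translation factor gene (-1.15 ± 0.22), did not hold throughout. Their adjusted p values (edgeR) were 0.0249, 0.0327 and 0.0327, and on leaving out 1 library they ranged from 0.0129 to 0.117, from 0.0271 to 0.186 and from 0.00319 to 0.141. Zfp36 stayed under 0.05 only without WT control replicate 1 or WT antigen replicate 2, Phf20l1 only without TTP-KO control replicate 3, WT control replicate 2 or WT antigen replicate 3, and Tufm only without WT antigen replicate 2. Il4 (3.27 ± 0.08 in the libraries labelled TTP-KO and 3.26 ± 0.08 in WT; difference 0.02 ± 0.10) and Il6 (3.28 ± 0.07 and 2.90 ± 0.07; difference 0.38 ± 0.09) were not called (edgeR, adjusted p = 0.991 and 0.248). Lasp1, Blcap and Samd11, the next smallest p values among lower log2 fold changes, were not called either, with differences of -0.28 ± 0.06, -0.52 ± 0.11 and -1.06 ± 0.23 (edgeR, adjusted p = 0.05004, 0.05004 and 0.12).

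**Figure D5:**
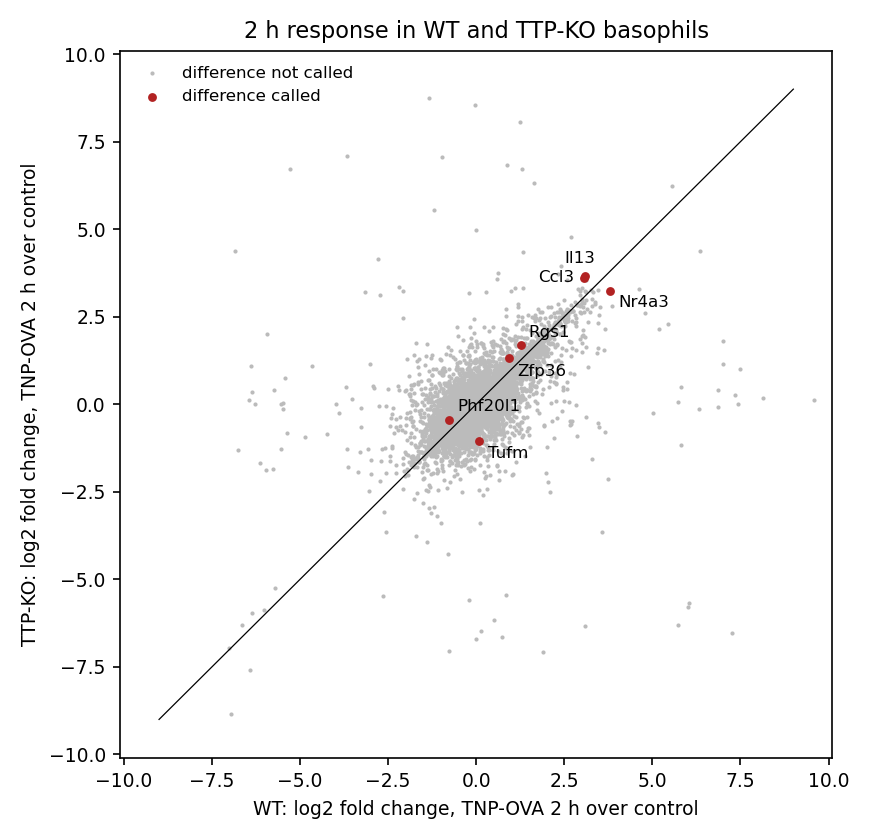
Log2 fold change of TNP-OVA 2 h over control OVA 2 h in the libraries labelled TTP-KO (y axis) against that in WT libraries (x axis), 1 point per tested gene, with the line of equal change in black. Red points are the 7 genes whose difference was called; Il13, Ccl3, Rgs1, Zfp36 and Phf20l1 lie above the line, and Nr4a3 and Tufm below it.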

How the data were processed

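The deposited values are RSEM expected counts per gene for 18 libraries. Per the submitters' processing notes, the authors used cutadapt 3.5, STAR 2.7.10a, RSEM 1.3.1 and R 4.4.1 and 4.4.0 with build GRCm39; the sources used here do not give the annotation release. Expected counts can split reads between near-identical genes, so Rn18s-rs5, the actins, Ftl1, Ighv1-64 and H2-K2 are uncertain.

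Counts were rounded, filtered with filterByExpr over the 6 groups (14076 genes kept) and scaled by TMM. The robust quasi-likelihood test of edgeR 4.0.16 (limma 3.58.1, R 4.3.3) was fitted to all 18 libraries, with 1 mean per group and no block, with Benjamini-Hochberg adjustment across the whole table; a gene was called at an adjusted p under 0.05. Errors of log2 fold changes are SE, those of CPM are SD over 3 libraries. The SE was derived from the edgeR test, as the absolute log2 fold change over the square root of its F statistic. Summaries used Python 3.11.15, pandas 2.3.3 and numpy 2.4.6. The procedure was tested on simulated data. Promoters came from the RefSeq table of GRCm38.p6. Alternatives were DESeq2 1.42.0, RLE scaling, library totals alone, no filter, the compared libraries alone, a replicate block and leaving out each library.

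No 2 libraries of a group agreed within sampling noise (chi-square per degree of freedom 2.97 to 7.04 over 18 pairs). Same-numbered antigen and control libraries did not deviate together (correlations from -0.066 to 0.013), so the numbers do not pair them. The 6 totals, 5516579.6 to 9446137 counts, limit the precision of low genes.

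The comparison, the 50 gene lists and the tests were chosen with earlier results of these data known. Genes were named by rule: the 12 largest called changes each way with a mean of at least 2 on the log2 CPM scale and groups that did not overlap, the 10 largest gains and losses in CPM, up to 4 called members per list by size of change, and the 5 smallest p each way for the genotype difference. Named after their values were seen were Nr4a1, Egr1, Fos, Mafg, Areg, Tnf, Junb, Cxcl2, Pdgfb, Ccl5, Cxcl16, Stim1, Kcnn4, Stat5b, Ptger2, Ptger4, Ptger3, Cxcr4, C5ar1, C5ar2, Ndst2, Mcpt8, Cpa3, Ctsg, Ccl24, Scimp, Akt2, Phlpp2, Fcer1g, Syk, Dusp1, Plcg1, Csf1, Lif, Osm, Prss34, Cyp11a1, Cd200r3, Dusp7, Rasa3, Fcgr2b, Cd274, Rel, Plk3, Cflar, the 5 promoters and the genes given at 4 h. Some genes that the rule names are not reported here.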

Additional observations from a re-analysis of the deposited data

Results flagged for a closer look

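The log2 fold change of antigen over control at 2 h differed between the libraries labelled TTP-KO and the WT libraries for 7 genes by a direct test of the difference (edgeR interaction term, adjusted over 14076 genes). The difference was 0.5821 for Il13, 0.5497 for Ccl3, 0.4283 for Rgs1, 0.4116 for Zfp36 and 0.3437 for Phf20l1, all higher in the libraries labelled TTP-KO. It was -0.5636 for Nr4a3 and -1.1489 for Tufm, both lower there. The differences of Il13, Ccl3, Rgs1 and Nr4a3 stayed past the threshold on leaving out each library in turn, and those of the other 3 did not.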

How the results depend on the processing

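For the 2 h response, library totals alone gave 7696 calls (1281 higher, 6415 lower), and for 4 h over 2 h they gave 4614 higher and 1191 lower. The other alternatives stayed within 1.5 times of the 4944 and 4382 calls, including DESeq2 with 4395 and RLE scaling with 4856 at 2 h. Leaving out 1 library gave 4352 to 4550 calls at 2 h and 3634 to 3903 at 4 h over 2 h. The genotype difference gave 7 calls, and 22 with DESeq2 (15 higher, 7 lower), 55 with no filter (29 and 26) and 11 with the compared libraries alone (5 lower), while the lower ones were 4 with RLE scaling and with library totals alone. Leaving out 1 library gave 4 to 8 calls, 3 to 6 higher and 1 to 4 lower, with 4 calls without TTP-KO control replicate 2 and without TTP-KO antigen replicate 1 or 3. With the replicate block the counts were 4918, 4337 and 8, and it is not supported by the correlations of same-numbered libraries. The WT log2 fold change turned negative with library totals alone for Cd14 (-0.0027), Rpl7l1 (-0.1146), Rpl19 (-0.1717), mt-Co1 (-0.231) and Tufm (-0.2382), and that of Tufm ranged from -0.0682 without antigen replicate 3 to 0.2689 without antigen replicate 2. The median of 38 of 50 lists lay above that of all genes, and of 30 to 41 under the alternatives. The cause of these changes was not tested. Genes with few counts, such as Csf2, Il3 and Spry4, have the widest errors, and 3 libraries per group limit what a call that was missed can show.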
